A study of Mus musculus with 8 samples.

Results

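NF-kB is the transcription factor family that many inflammatory signals act through in macrophages, and the genes described here encode its 5 subunits (Nfkb1, Nfkb2, Rel, Rela and Relb), 4 IkB proteins (Nfkbia, Nfkbib, Nfkbie and Nfkbiz) and the feedback inhibitor A20 (Tnfaip3). These 10 genes were taken by name from the 55357 genes counted in bone marrow-derived macrophages (BMDM), and all 10 had enough reads to be among the 14514 genes tested. They were compared between 4 control libraries and 4 libraries of cells treated with So(d18:1), that is, sphingosine with an 18-carbon backbone and 1 double bond. The comparison asks whether So(d18:1) changed the RNA of the NF-kB genes themselves. Nfkb2 rose to 1.11 times its control level (95% interval 1.04 to 1.18) and was the single gene of the 10 to pass the test, beside 8.94% of all tested genes. That call was lost in 6 of the 8 fits that left out a library. No gene of the 10 met a threshold of 1.5-fold with an unadjusted p under 0.05, as 3.89% of all tested genes did.

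NF-kB subunits bind DNA as pairs and are held in the cytoplasm by IkB proteins until the IkB kinase (IKK) complex marks those for degradation. Rela and Rel pair mostly with the processed product of Nfkb1 in the canonical pathway, while Relb pairs with the processed product of Nfkb2 in the non-canonical pathway. Several of these genes, above all Nfkbia and Tnfaip3, are themselves NF-kB targets, so that in macrophages their RNA is known to follow the activity of the pathway as negative feedback.

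All 8 libraries came from BMDM of wild-type C57BL/6J mice, grown from femur and tibia marrow with macrophage colony-stimulating factor. The So(d18:1) cells received 2 µM sphingosine dissolved in methanol for 6 h, and the control cells received methanol for the same 6 h. The sample labels list no LPS or cytokine, while the study's text speaks of an inflammatory stimulus. Whether NF-kB was being driven in these cells is thus not settled by the sources used here. Among NF-kB targets picked out after their values were seen, Il6, Il12b and Nos2 had at most 5, 3 and 8 reads per library. Il1b had 454 to 662 reads, and the state of the pathway was not tested. The study describes the 4 libraries of a group as independent biological samples, without saying whether each came from a different mouse, so p-values measure the spread between these cultures, and each group stands for cultured cells at a single dose and time.

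Poly(A) RNA was sequenced, and 17748397 to 26088609 reads per library were counted on genes. Values are given as CPM, that is, counts relative to the TMM-scaled total of their library, and a gene was called where edgeR's quasi-likelihood test gave a Benjamini-Hochberg adjusted p under 0.05 over all genes tested. By this rule 8.94% of all tested genes were called, 3.87% as higher and 5.07% as lower with So(d18:1). Summed CPM of 8 macrophage markers lay between 30650 and 32994 in control and between 26524 and 31476 in So(d18:1) libraries. A list of 7 neutrophil markers summed to 1093 to 1499 CPM in control and 849 to 957 CPM in So(d18:1) libraries. All 7 were lower with So(d18:1), and 4 of them (Mpo, Elane, S100a8 and S100a9) were called. Ly6g, Camp and Ltf were not called (edgeR adjusted p = 0.0803, 0.127 and 0.0616), though their groups did not overlap. No listed marker of either cell type was at 0 in all libraries, and the part of this difference in the results was not tested. Bulk RNA cannot tell fewer cells of a kind from less RNA per cell.

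Because several of these genes are controlled by NF-kB, their promoters were searched for its binding motif, the kB consensus of 10 bases (3 guanines, a purine, 2 free bases, 2 pyrimidines and 2 cytosines), on both strands and with overlapping matches taken as 1. The windows run from 250 bases before to 50 bases after each start in RefSeq (GRCm38.p6), and 7 of the 10 genes have one. A match was found for 5 of the 7, Nfkb2, Rel, Nfkbia, Nfkbie and Tnfaip3, and not in the windows of Rela and Nfkbib. Of 32851 windows of this length 8.46% held a match, as did 9.55% of the 27025 genes with a window. Nfkb1, Relb and Nfkbiz are not in the table. The matched sites follow in the direction of the gene, with the match in capitals inside a window of 30 bases. The called gene (Nfkb2) can thus be set beside uncalled genes, though not beside Relb, whose fold change was much the same. Positions count from the RefSeq start, and coordinates are of GRCm38.
Nfkb2, first start, bases -39 to -29, chr19:46304688-46304717, plus strand: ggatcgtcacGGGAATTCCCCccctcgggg
Nfkb2, first start, bases -11 to -2, chr19:46304716-46304745, plus strand: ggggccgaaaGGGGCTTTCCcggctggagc
Nfkb2, second start, bases -236 to -227, chr19:46305449-46305478, plus strand: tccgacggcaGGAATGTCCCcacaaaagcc
Nfkb2, second start, bases 11 to 20, chr19:46305695-46305724, plus strand: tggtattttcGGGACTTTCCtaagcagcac
Rel, bases -92 to -82, chr11:23771042-23771071, minus strand: cgtaagcagcGGGAAATCCCCccccctccc
Nfkbia, bases -29 to -20, chr12:55492657-55492686, minus strand: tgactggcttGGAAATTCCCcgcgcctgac
Nfkbie, bases -106 to -97, chr17:45555584-45555613, plus strand: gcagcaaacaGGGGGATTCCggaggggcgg
Tnfaip3, bases -125 to -116, chr10:19015516-19015545, minus strand: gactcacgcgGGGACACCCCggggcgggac
Tnfaip3, bases -12 to -3, chr10:19015403-19015432, minus strand: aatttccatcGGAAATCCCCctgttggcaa

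Nfkb2 had the most matches, 4 different sites over its 3 starts, and also the most windows searched. Tnfaip3 has 2 windows, and Rel, Nfkbia and Nfkbie have 1 each. The 4 genes that also hold a match, Rel, Nfkbia, Nfkbie and Tnfaip3, were not called. A match is a run of letters and not a measured binding site.

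Nfkbia is the textbook feedback gene of the pathway and, per length, the most abundant of the 10, so the 250 bases before its start are shown whole, from chr12:55492648-55492897 on the minus strand, with the matched site in capitals.
Nfkbia, 250 bases before the start: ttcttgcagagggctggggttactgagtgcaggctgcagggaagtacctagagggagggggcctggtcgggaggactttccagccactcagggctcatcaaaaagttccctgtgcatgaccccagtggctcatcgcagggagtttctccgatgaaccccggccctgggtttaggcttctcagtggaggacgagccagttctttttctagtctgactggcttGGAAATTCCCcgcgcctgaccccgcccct

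Of the 5 subunits, Nfkb2 rose with So(d18:1), while Nfkb1, Rel, Rela and Relb were not called, and differences between the genes in their fold changes were not tested. Nfkb2 (ENSMUSG00000025225, chr19:46304320-46312385, plus strand) encodes the p100 precursor, which acts as an IkB-like inhibitor until it is processed to p52. Its level was 114, 113, 110 and 107 CPM in the control libraries and 122, 120, 129 and 122 CPM in the So(d18:1) libraries. All 4 So(d18:1) libraries lay above all 4 control libraries. The means were 111 ± 3.20 and 123 ± 3.97 CPM (SD, n = 4 each), and the log2 fold change was 0.15 (SE 0.043, edgeR adjusted p = 0.0366). The 95% interval of the fold change ran from 1.04 to 1.18, and the exact permutation test gave p = 0.0286, the smallest that 4 against 4 libraries allow. The call was kept without control replicate 1 (edgeR adjusted p = 0.0456) or 2 (0.0384) and was lost without control replicate 3 (0.0692) or 4 (0.115) or without So(d18:1) replicate 1 (0.0582), 2 (0.0541), 3 (0.100) or 4 (0.0562). The call was kept in 9 of 10 other settings and lost with upper quartile scaling (edgeR adjusted p = 0.0574). It thus rests on most single libraries and, at the margin, on the scaling. The log2 fold change stayed between 0.13 and 0.16 in all these fits.

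Exons of Nfkb2 share 830 of 4584 bases with Psd and AC114539.1 on the opposite strand, and the strand setting of the counting is not given in the sources used here, so reads from the shared bases cannot be assigned with certainty. Psd itself was called as higher, from 17.8 ± 1.25 to 22.5 ± 2.22 CPM (log2 fold change 0.33, edgeR adjusted p = 0.0141), and AC114539.1 was at 14.9 and 16.3 CPM (edgeR adjusted p = 0.362). Each was counted below Nfkb2, with 292 to 525 reads per library against 2170 to 3147. The rise of Nfkb2 was itself small, from 111 to 123 CPM. How much of it reads of the overlapping genes could make up was not tested.

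Relb (ENSMUSG00000002983, chr7:19606217-19629438, minus strand) encodes the non-canonical partner of p52. It was at 55.5, 53.9, 54.4 and 56.2 CPM in control and at 62.2, 62.7, 58.9 and 59.7 CPM in So(d18:1) libraries. The groups did not overlap here either, and the size of the difference was like that of Nfkb2, with a log2 fold change of 0.15 (SE 0.048, fold change 1.03 to 1.19). Relb was nevertheless not called (edgeR adjusted p = 0.0616), and its adjusted p stayed at 0.0503 or above in all 18 refits, from 0.0503 to 0.101 with other settings and from 0.0624 to 0.168 with a library left out. The exact permutation test again gave its smallest p, 0.0286. Nfkb2 and Relb were the 2 of the 10 genes whose groups did not overlap, and 15% of all tested genes had groups that did not overlap.

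The 3 subunits of the canonical pathway overlapped between the groups. Nfkb1 (ENSMUSG00000028163, chr3:135584655-135691547, minus strand), which encodes the p105 precursor of p50, was at 219, 219, 239 and 243 CPM in control and 220, 204, 227 and 223 CPM in So(d18:1) libraries. Its means were 230 ± 12.9 and 218 ± 9.83 CPM (log2 fold change -0.07, SE 0.048, edgeR adjusted p = 0.379). Rela (ENSMUSG00000024927, chr19:5637483-5648130, plus strand), the p65 subunit that carries the transactivation domain of the commonest pair, was at 97.3, 87.8, 99.0 and 99.4 CPM in control and 100.2, 93.4, 94.8 and 102.8 CPM in So(d18:1) libraries. The Rela groups covered much the same range, and the log2 fold change was 0.03 (SE 0.050, edgeR adjusted p = 0.783) with a fold change interval that ended at 1.10 on its upper side. Without control replicate 2, the lowest Rela library, the log2 fold change was -0.010, so its sign depended on that library.

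Rel (ENSMUSG00000020275, chr11:23736847-23770970, minus strand) encodes c-Rel, a subunit with its own transactivation domain that is prominent in blood cells. It was at 167, 179, 147 and 150 CPM in control and 152, 156, 160 and 142 CPM in So(d18:1) libraries. All the So(d18:1) values lay within the range of the control values, apart from 142 CPM in replicate 4. Rel had the widest spread of the 10 among controls, with a coefficient of variation of 9.27%, and its log2 fold change of -0.08 (SE 0.058) was not called (edgeR adjusted p = 0.457). Rel and Nfkb1 were the most negative of the 10, and both intervals reached past a fold change of 1, to 1.03 and 1.02.

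**Figure D1:**
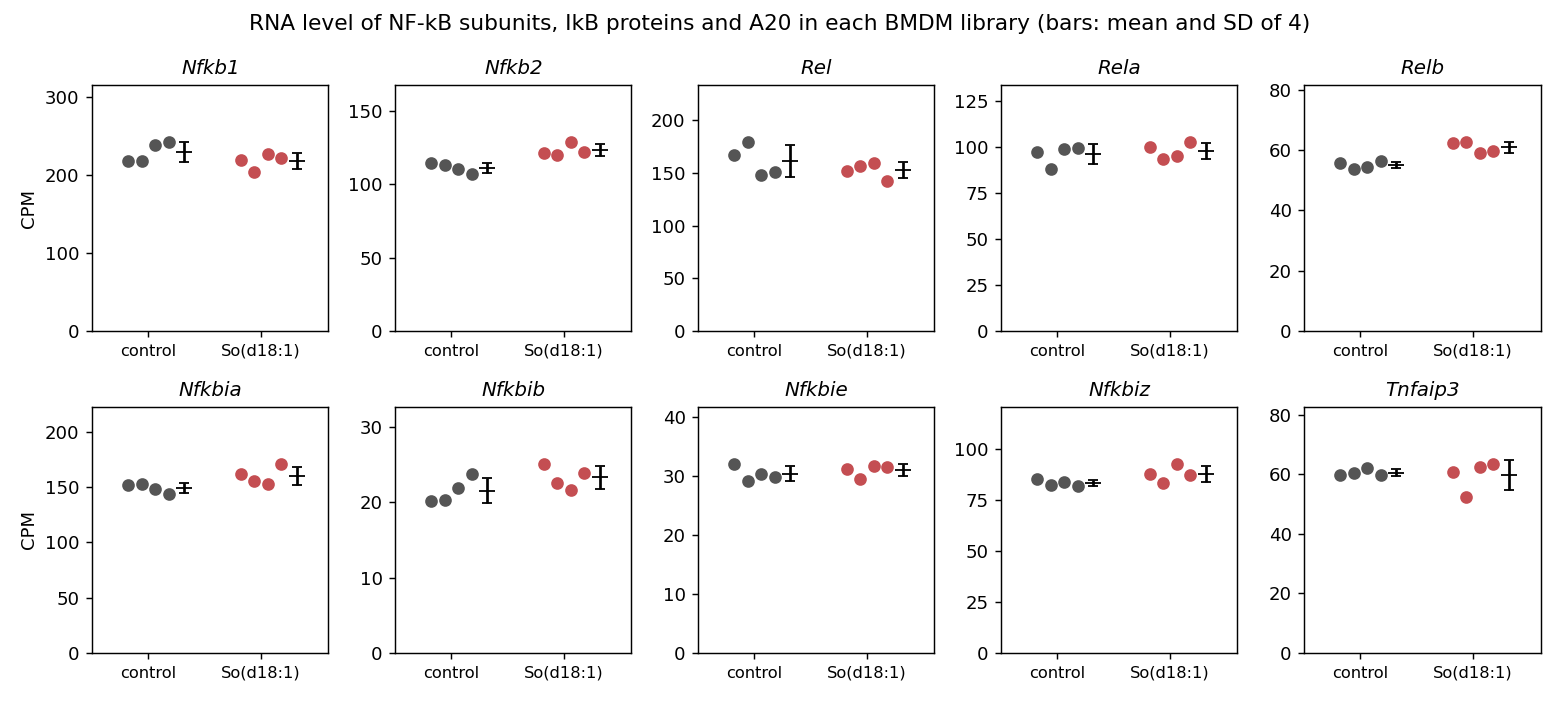
CPM of each of the 10 genes in each library (y axes start at 0, control in grey, So(d18:1) in red), with the mean and SD of 4 libraries as black bars. The points of Nfkb2 and Relb do not overlap between the groups, and those of the other 8 genes do.

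Among the classical IkB proteins no gene was called, and all 3 fold changes were above 1. Nfkbia (ENSMUSG00000021025, chr12:55489410-55492647, minus strand) encodes IkBα, which binds Rela pairs and is remade within the feedback loop. It was at 152, 153, 148 and 144 CPM in control and at 162, 156, 153 and 171 CPM in So(d18:1) libraries. So(d18:1) replicate 3 fell within the control range, if only just, and the other 3 lay above it. The means were 149 ± 4.26 and 161 ± 8.16 CPM, with a log2 fold change of 0.10 (SE 0.045, unadjusted p = 0.0320 and edgeR adjusted p = 0.166). The exact permutation test for Nfkbia gave p = 0.0571. The fold change interval ended at 1.15.

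Nfkbib (ENSMUSG00000030595, chr7:28758251-28767512, minus strand) encodes IkBβ and was the least counted of the 10, with at least 415 reads in each library. It was at 20.2, 20.3, 21.8 and 23.7 CPM in control and 25.1, 22.5, 21.6 and 23.9 CPM in So(d18:1) libraries. The groups overlapped, and the log2 fold change of 0.11 (SE 0.074, edgeR adjusted p = 0.387) had the widest interval of the 10, from a fold change of 0.972 to 1.20. Its exons share 356 bases with Sirt2 and Ccer2 on the opposite strand, and Sirt2, at 142 and 144 CPM, is counted well above Nfkbib, so its value is uncertain for the same reason as that of Nfkb2. Nfkbie (ENSMUSG00000023947, chr17:45555703-45563169, plus strand) encodes IkBε and was at 32.1, 29.2, 30.4 and 29.8 CPM in control and 31.1, 29.6, 31.8 and 31.6 CPM in So(d18:1) libraries. The means differed by less than the SD of either group, 30.4 ± 1.28 against 31.0 ± 0.997 CPM (edgeR adjusted p = 0.808).

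Nfkbiz (ENSMUSG00000035356, chr16:55811375-55838899, minus strand) encodes IkBζ, an inducible nuclear IkB protein that acts on a subset of NF-kB targets rather than holding NF-kB in the cytoplasm. It was at 85.2, 82.4, 83.6 and 81.8 CPM in control and 87.5, 83.3, 92.7 and 87.1 CPM in So(d18:1) libraries. In 3 of the 4 So(d18:1) libraries it lay above all controls, with a log2 fold change of 0.07 (SE 0.046, edgeR adjusted p = 0.346). Tnfaip3 (ENSMUSG00000019850, chr10:19000910-19015657, minus strand) encodes A20, a ubiquitin-editing enzyme that shuts off signals upstream of IKK. It was at 59.9, 60.4, 62.2 and 59.8 CPM in control and 60.7, 52.6, 62.4 and 63.7 CPM in So(d18:1) libraries. The single low value, So(d18:1) replicate 2, set the sign of the Tnfaip3 difference, which was -0.02 (log2, edgeR adjusted p = 0.897) with that library and 0.041 without it.

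In all, 7 of the 10 genes were higher and 3 lower with So(d18:1), signs that each of the 4 scalings kept, and 1 of the 10 was called, which is 10% beside 8.94% of all tested genes. As higher, 1 of 10 stands beside 3.87% of all tested genes. By the threshold in the study's methods, an unadjusted p under 0.05 with a fold change of at least 1.5, none of the 10 was called, beside 3.89% of all tested genes. 3 of the 10, Nfkb2, Relb and Nfkbia, had an unadjusted p under 0.05, as did 3393 of the 14514 tested genes. The median log2 fold change of the 10 was 0.053 and their median absolute log2 fold change 0.077, beside 0.0036 and 0.110 over all tested genes. All 10 intervals lay between fold changes of 0.870 and 1.20, so changes of 1.5-fold in either direction lie outside them at this depth.

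**Figure D2:**
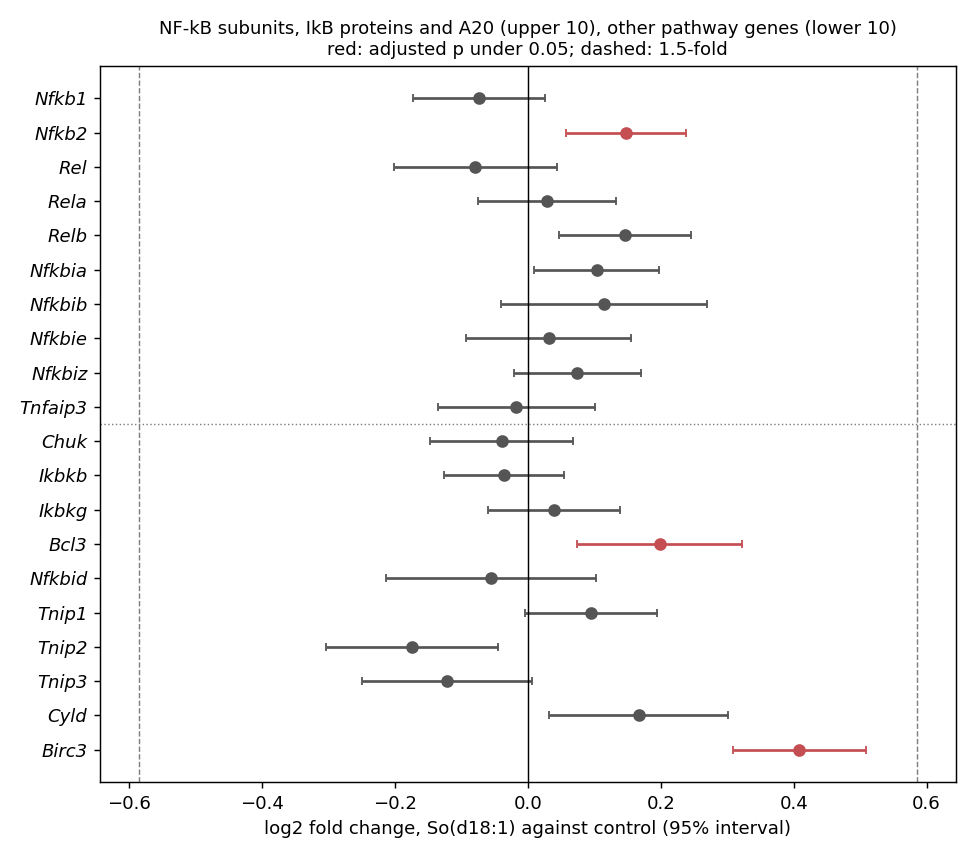
Log2 fold change (x axis) with its 95% interval from edgeR's fit for the 10 genes above the dotted line and for 10 other genes of the pathway below it. Called genes are red and the dashed lines mark 1.5-fold, which no interval of the 20 genes reaches.

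The genes were compared with each other as CPM per kilobase, with the deposited gene length, which counts every exon of a gene once. On that scale Nfkbia stood far above the rest in control cells, at 92.8 ± 2.64 CPM per kilobase, followed by Rela at 31.2 ± 1.77, Nfkb2 at 24.3 ± 0.699, Rel at 21.6 ± 2.00 and Nfkb1 at 19.1 ± 1.07 CPM per kilobase. Nfkb2 and Rel overlapped between libraries, as did Rel and Nfkb1, so their order is not set beyond the spread. Nfkbiz, at 16.6 ± 0.296, and Relb, at 14.2 ± 0.273 CPM per kilobase, overlapped with no neighbour. The lowest were Nfkbie at 9.98 ± 0.419 and Nfkbib at 9.91 ± 0.760, which could not be ordered, and Tnfaip3 at 8.38 ± 0.158 CPM per kilobase. With So(d18:1) the ranking was the same except that Nfkbib, at 10.7 ± 0.709, and Nfkbie, at 10.2 ± 0.327 CPM per kilobase, changed places, again with overlap. Nfkb1 and Nfkbiz overlapped with So(d18:1), whereas Nfkb2, Rel and Nfkb1 did not overlap with each other there.

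The place of Nfkb1 depends on the length used. Its exons merge to 12061 bases, whereas its longest coding transcript has 4117, and dividing by the latter put Nfkb1 second, at 55.8 CPM per kilobase, after Nfkbia at 94.7 and before Rela at 35.3. Relb then stood at 24.9, above Rel at 21.6 and Nfkbiz at 20.2 CPM per kilobase, and Tnfaip3 at 13.7 above Nfkbie at 12.5 and Nfkbib at 10.4. Nfkbia was first with either length.

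**Figure D3:**
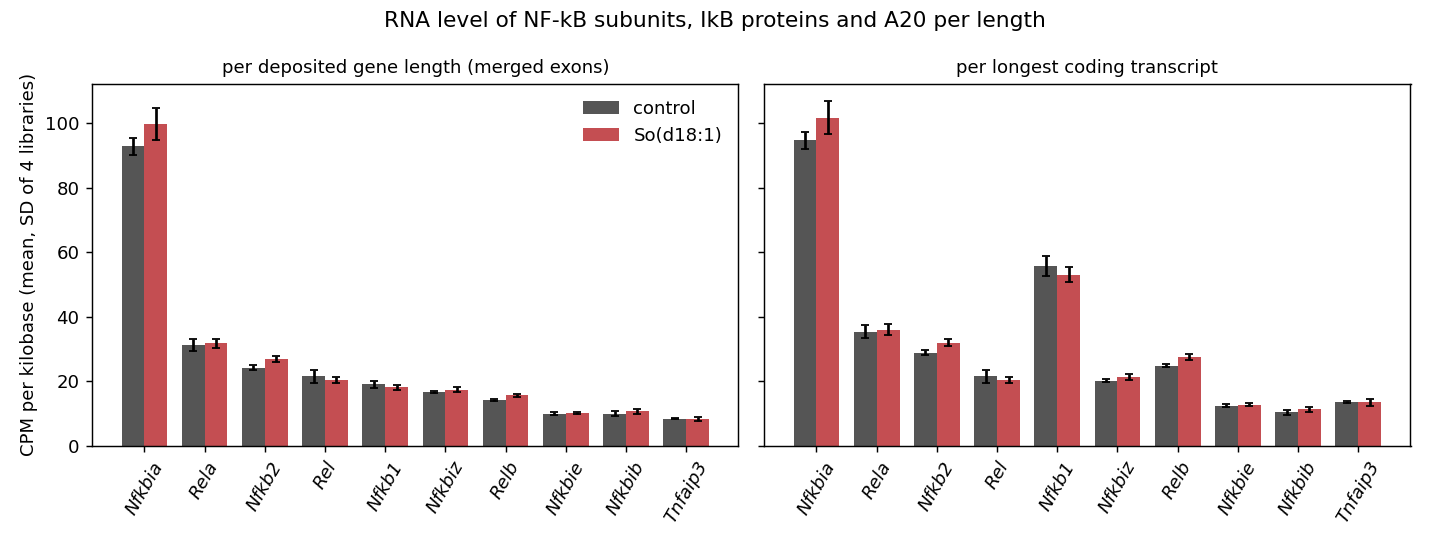
Mean level of the 10 genes in CPM per kilobase (bars from 0, error bars are the SD of 4 libraries) with the deposited gene length on the left and the length of the longest coding transcript on the right. Nfkbia is highest in both panels, and Nfkb1 moves from 5th to 2nd place.

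Ratios within a library, which no scaling between libraries can change, were taken of the same per-kilobase levels and are a description without a test. Nfkb2 over Nfkb1, the non-canonical over the canonical precursor, was 1.37, 1.36, 1.21 and 1.16 in control and 1.46, 1.55, 1.497 and 1.44 in So(d18:1) libraries. The groups did not overlap, at 1.28 ± 0.106 and 1.49 ± 0.0471, as the mean of the numerator was higher and that of the denominator lower. Which of them is the larger depends on the length: per longest coding transcript the ratio was 0.520 ± 0.0433 in control and 0.604 ± 0.0192 in So(d18:1) libraries, below 1 and again without overlap, since a change of length multiplies all 8 values alike. Relb over Rela was 0.454 ± 0.0214 in control and 0.493 ± 0.0294 in So(d18:1) libraries and overlapped, since control replicate 2 stood at 0.485 and So(d18:1) replicate 4 at 0.459. The inhibitor Nfkbia over Rela was 2.98 ± 0.245 and 3.13 ± 0.0626, with the So(d18:1) values inside the control range of 2.76 to 3.32. Rel over Rela was 0.695 ± 0.105 and 0.643 ± 0.0592, and Tnfaip3 over Nfkbia was 0.0904 ± 0.00307 and 0.0831 ± 0.00651, both with overlap.

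**Figure D4:**
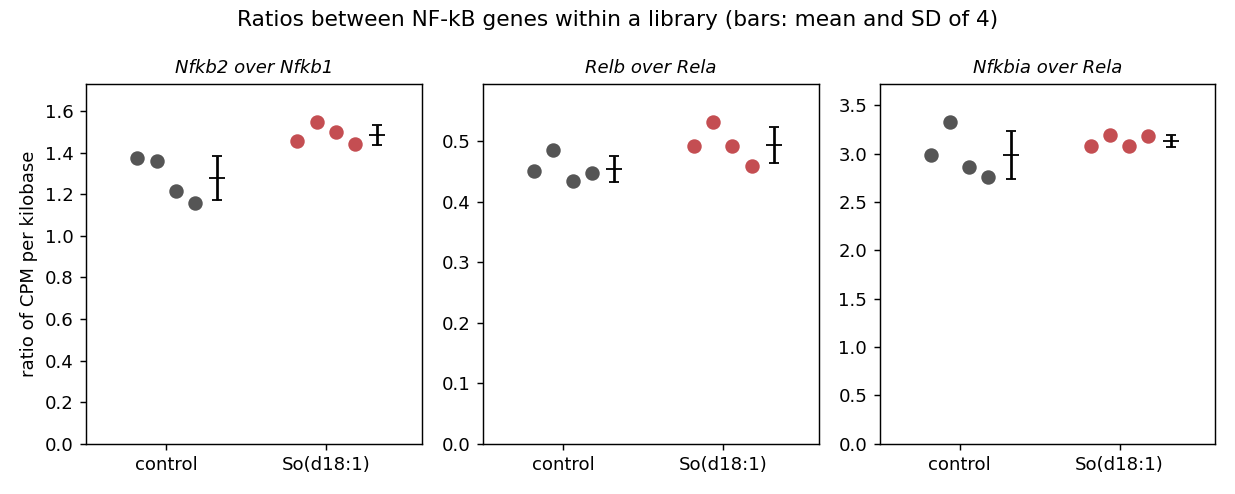
Ratio of CPM per kilobase between pairs of genes in each library (y axes start at 0), with the mean and SD of 4 libraries as black bars. The groups are apart for Nfkb2 over Nfkb1, with control at 1.16 to 1.37 and So(d18:1) at 1.44 to 1.55, and overlap for the other pairs shown. These values use the deposited gene length, and per longest coding transcript Nfkb2 over Nfkb1 is 0.520 and 0.604.

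Around these genes stand the kinases, ligases and further inhibitors of the pathway, a list of 35 genes, all of which were tested. Of these, 2 rose (Birc3 and Bcl3) and none fell, which is 5.71% beside 8.94% of all tested genes, and the median log2 fold change was -0.0034. The signs were split, with 17 genes higher and 18 lower. Of the 35, 10 had an unadjusted p under 0.05, as did 3393 of the 14514 tested genes.

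Birc3, which encodes cIAP2, a ubiquitin ligase that acts in TNF receptor signalling and keeps the non-canonical kinase NIK low, changed most of the 35. It was at 196, 198, 173 and 176 CPM in control and 247, 238, 249 and 251 CPM in So(d18:1) libraries. The groups were well apart, at 186 ± 13.1 and 246 ± 5.55 CPM (log2 fold change 0.41, SE 0.048, edgeR adjusted p = 8.4e-06), and Birc3 was called in all 18 refits. Of the 50-base words of its transcripts, 7.38% also occur in other genes. Its neighbour and relative Birc2, singled out after its value was seen, was at 60.2 and 65.0 CPM (log2 fold change 0.11, edgeR adjusted p = 0.316).

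Bcl3, an IkB-like nuclear protein that binds p50 and p52 pairs, was at 38.2, 36.3, 39.3 and 41.0 CPM in control and 48.7, 42.6, 42.9 and 43.7 CPM in So(d18:1) libraries. The groups did not overlap, and the log2 fold change was 0.20 (SE 0.060, edgeR adjusted p = 0.0413). Its call was kept without control replicate 4 (0.0427) or without So(d18:1) replicate 3, where it lay just under the threshold, and was lost without any other single library, with an edgeR adjusted p between 0.0577 and 0.131. Bcl3 also shares 161 bases of exon with Gm16175 on the opposite strand. The other nuclear IkB gene of the list, Nfkbid, was at 26.3 and 25.4 CPM (edgeR adjusted p = 0.716).

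The IKK complex showed no called gene. Chuk (IKKα) was at 80.5 ± 3.91 and 78.4 ± 4.36 CPM, Ikbkb (IKKβ) at 195 ± 4.60 and 190 ± 8.48 CPM, and Ikbkg (NEMO) at 89.3 ± 3.05 and 91.8 ± 4.77 CPM in control and So(d18:1) libraries. Their fold change intervals together spanned 0.903 to 1.10. The related kinase Ikbke was the highest uncalled gene of the list, at 414 ± 8.32 and 354 ± 46.1 CPM, with groups that did not overlap and a spread that was wider with So(d18:1) (log2 fold change -0.23, edgeR adjusted p = 0.0896). Ikbke was called in 6 of 10 other settings and without So(d18:1) replicate 1 (edgeR adjusted p = 0.0047). Tab2, an adaptor of the kinase TAK1, was at 287 and 285 CPM (edgeR adjusted p = 0.915).

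A20 works with partner proteins, and none of these was called. Tnip1 was at 80.1 ± 1.92 and 85.6 ± 4.47 CPM (edgeR adjusted p = 0.234), Tnip2 at 40.1 ± 2.25 and 35.7 ± 2.32 CPM (0.0890) and Tnip3 at 44.0 ± 3.35 and 40.4 ± 1.86 CPM (0.238). Only Tnip2 of these 3 had groups that did not overlap. Cyld, a deubiquitinase that also limits NF-kB, was at 113 ± 12.5 and 127 ± 4.95 CPM (edgeR adjusted p = 0.121) and was called without control replicate 2 (0.0069).

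Of 27 receptors and adaptors that feed into NF-kB, all were tested, 1 rose and 1 fell, which is 7.41% beside 8.94% of all tested genes, with a median log2 fold change of 0.025. Irak2, a kinase of the Toll-like and IL-1 receptor complex, was at 97.6, 95.9, 100.7 and 103.8 CPM in control and 109.9, 105.9, 114.2 and 113.4 CPM in So(d18:1) libraries (log2 fold change 0.16, SE 0.045, edgeR adjusted p = 0.0332). Its groups did not overlap, but the call was kept in only 3 of 8 fits with a library left out, those without control replicate 3 (0.0455) or 4 (0.0353) or without So(d18:1) replicate 2 (0.0342), and the edgeR adjusted p in the other 5 was 0.0567 to 0.0817. Tnfrsf11a, which encodes RANK, the receptor for the osteoclast factor RANKL and an activator of both NF-kB arms, fell from 69.0 ± 6.40 to 56.2 ± 4.84 CPM (log2 fold change -0.30, SE 0.070, edgeR adjusted p = 0.0127) and was called in all 18 refits. All 5 TNF family receptors listed were lower, as were 7127 of the 14514 tested genes, and the other 4 were not called. Tnfrsf1b was at 637 ± 29.1 and 578 ± 30.7 CPM (edgeR adjusted p = 0.0696). Its adjusted p was 0.0376 without control replicate 2 and 0.0341 without So(d18:1) replicate 4. Cd40, Tnfrsf1a and Ltbr, named after their values were seen, had log2 fold changes of -0.26, -0.05 and -0.02 (edgeR adjusted p = 0.162, 0.619 and 0.915). The LPS co-receptor Cd14 was at 548 and 556 CPM (edgeR adjusted p = 0.842).

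Genes that NF-kB is known to switch on changed in both directions. Of 42 listed targets 35 were tested, 5 rose and 5 fell, which is 28.6% beside 8.94% of all tested genes, and the median log2 fold change was -0.054 while the median absolute value was 0.278. The directions were thus split, with 17 higher and 18 lower. By the study's threshold 8 of the 35 were called, beside 3.89%, and 13 had groups that did not overlap, beside 15%. This list was chosen with earlier results of these data known, as were the others. Its shares beside those of all tested genes are thus a description and not a test of an excess.

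Slc2a6, a lysosomal sugar transporter of inflammatory macrophages, changed most, from 25.7, 25.2, 24.4 and 24.0 CPM in control to 51.1, 46.2, 49.4 and 49.1 CPM in So(d18:1) libraries (log2 fold change 0.98, SE 0.057, edgeR adjusted p = 4.7e-10). The groups were far apart, and the 95% interval of the fold change was 1.82 to 2.14. Ier3, an immediate early survival gene, rose from 79.7 ± 4.11 to 121 ± 7.30 CPM (log2 fold change 0.60, edgeR adjusted p = 1.2e-07). Acod1, the enzyme that makes itaconate, rose from 14.1 ± 1.10 to 21.4 ± 1.95 CPM (log2 fold change 0.60, edgeR adjusted p = 7.5e-05). Cd83, a surface protein of activated antigen-presenting cells, fell from 24.8 ± 2.67 to 14.1 ± 1.42 CPM (log2 fold change -0.81, edgeR adjusted p = 2.9e-06). These 4 were called in all 18 refits.

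The other 6 called targets are named after their values were seen. Sod2, the mitochondrial superoxide dismutase, and Irf1, an interferon regulatory factor, rose by log2 fold changes of 0.20 and 0.24 (edgeR adjusted p = 0.0035 and 0.0069). Ccl3, a chemokine, fell by 0.58 on the log2 scale (edgeR adjusted p = 0.00028). The costimulatory genes Cd86 and Cd80 had log2 fold changes of -0.30 and -0.28 (edgeR adjusted p = 0.0193 and 0.0365), and Bcl2a1b one of -0.67 (edgeR adjusted p = 0.0448). Cd80 kept its call only without So(d18:1) replicate 4, Bcl2a1b only without control replicate 2 or So(d18:1) replicate 1, and Cd86 in 4 of 8 fits with a library left out. Of the transcript words of Bcl2a1b 79.17% are shared with its copies and of those of Sod2 21.04% with other genes, so counts of both are uncertain.

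Some cytokine and effector targets, likewise picked out after their values were seen, were scarcely counted in either group. Il6 had 0 to 5 reads per library, Il12b 0 to 3 and Nos2 0 to 8, and none of these 3 was tested. Tnf was at 5.82 ± 0.694 and 4.84 ± 0.404 CPM (edgeR adjusted p = 0.225) and Il1b at 22.8 ± 2.62 and 24.6 ± 1.28 CPM (edgeR adjusted p = 0.450). The 2 uncalled targets of highest level were Tlr2, at 393 ± 14.4 and 371 ± 34.7 CPM (edgeR adjusted p = 0.396), and Marcksl1, at 226 ± 17.9 and 228 ± 16.5 CPM (0.944), whose sign changed with upper quartile scaling.

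**Figure D5:**
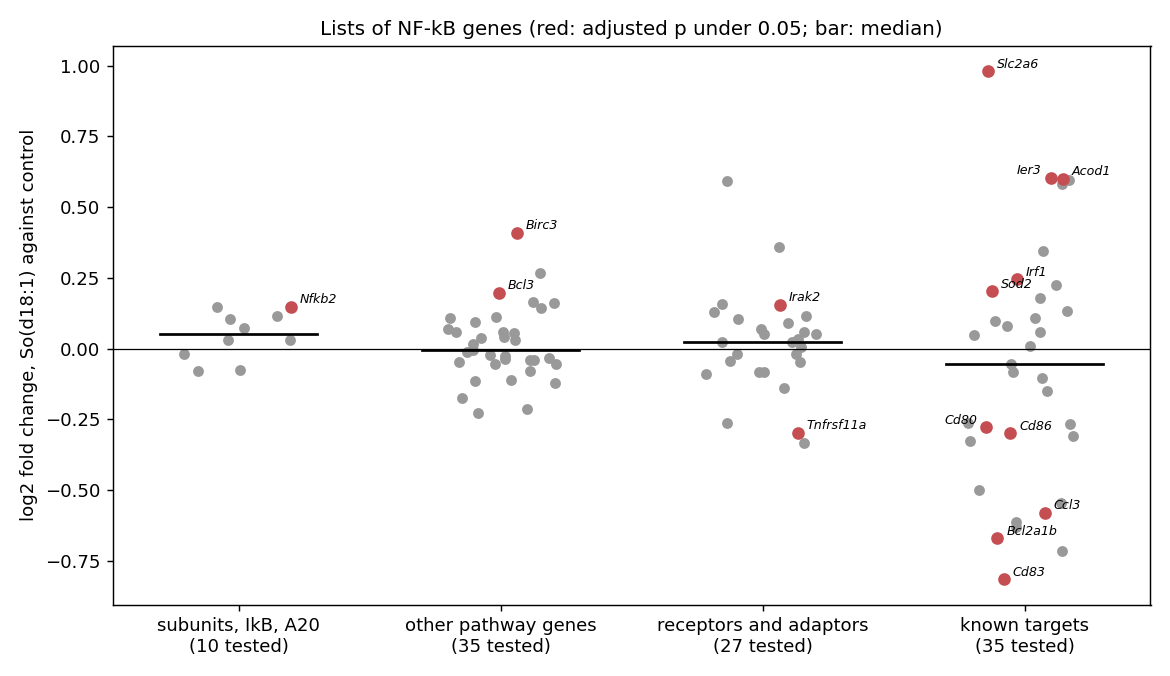
Log2 fold change (y axis) of each tested gene of the 4 lists, with called genes in red and the median of each list as a black line. The 10 NF-kB genes lie between -0.08 and 0.15, the targets between -0.81 and 0.98 on both sides of 0.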

How the data were processed

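RNA was measured in 4 control and 4 So(d18:1) BMDM libraries, grouped by their labels. The deposited values are whole-read counts per Ensembl gene, not normalized. For these counts the authors used Trim Galore 0.6.7, HISAT2 2.2.1 on mm10 and featureCounts 2.0.1 (submitters' processing notes), and strand and multi-mapping settings are not given in the sources used here.

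The main test was the robust quasi-likelihood F test of edgeR 4.0.16 (R 4.3.3) after filterByExpr and TMM, with Benjamini-Hochberg adjustment over 14514 genes, and it was tested on simulated data first. SE is the absolute log2 fold change over the square root of F, and intervals are 95%. The two-sided exact permutation test took log2(CPM + 0.5) over 70 divisions. Refits are 8 fits with a library left out and 10 with another setting (DESeq2 1.42.0 size factors or Wald test, upper quartile or no scaling, 2 other filters, limma-voom in limma 3.58.1, the likelihood ratio or exact test of edgeR, replicate number as a block). The study's threshold was a further alternative, and the longest coding transcript as a length, for levels and ratios, was added after seeing the data.

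Gene names, positions and shared 50-base words came from GENCODE M21 (GRCm38) and promoters from RefSeq (GRCm38.p6). The 10 genes and the other lists were chosen with earlier results of these data known. From each other list up to 4 called genes of smallest p and the 2 uncalled genes of highest CPM are named, as are IKK subunits, Bcl3, Nfkbid, Tnip genes and Cyld. The biological coefficient of variation was 0.0657, and libraries of a group differed by a chi-square per gene of 2.75 to 12.1. Control replicates 1 and 2 (2.75) and control replicates 3 and 4 (3.76) were closer than the other control pairs (5.68 to 12.1). So(d18:1) replicates 1 and 3 (2.77) were likewise closer than the other So(d18:1) pairs (5.39 to 7.48). Whether these pairs share a source was not tested. Of 8 macrophage markers 1 was called as higher (Itgam) and 2 as lower (Cd68 and Mertk). Further marker lists summed to 13.3 to 19.4 CPM (B cell, 1 of 5 called, as lower), 5.56 to 8.13 (dendritic cell), 4.15 to 8.26 (stromal cell), 0.165 to 0.337 (T and NK cell) and 0.505 to 1.15 (erythroid), the latter 4 with no called gene. The plots were made with matplotlib 3.10.9 (Python 3.11.15).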

Additional observations from a re-analysis of the deposited data

Results flagged for a closer look

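For 3 genes the value of 1 library lay far from those of the same group, with a gap to the nearest value, as a share of the group's range, above Dixon's 95% critical value. Chuk was at 74.7 CPM in control replicate 4 and at 81.8 to 83.1 CPM in the other controls (gap 0.845 of the range). Ikbke was at 426.5 CPM in control replicate 1 and at 409.6 to 410.3 CPM in the others (0.960). Tab2 was at 276.8 CPM in So(d18:1) replicate 2 and at 286.7 to 288.0 CPM in the others (0.889). No value of the 10 NF-kB genes stood apart in this way. These are 3 of 80 groups examined, where chance gives about 1 in 20, or 4.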

How the results depend on the processing

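All 10 NF-kB genes kept their direction under the 10 other settings, and leaving out a library turned the sign of Rela (log2 fold change -0.010 to 0.052) and Tnfaip3 (-0.050 to 0.041). The count of 1 called gene among the 10 was 0 by the study's threshold and 0 with upper quartile scaling, and 0 to 1 with a library left out. Of the 2 called among 35 other pathway genes, 0 were called by the study's threshold, 1 with upper quartile scaling, 4 with no filter on low counts, 4 by the likelihood ratio test, 4 by the exact test and 1 to 3 with a library left out. Of the 2 called among 27 receptors and adaptors, 0 were called by the study's threshold, 4 with no filter and 1 to 2 with a library left out. The 10 called targets became 7 to 12 with a library left out and 8 to 14 otherwise. With the replicate number as a block, 5 pathway genes, 4 receptors and adaptors, 14 targets and 1784 genes in all were called, against 1298 without it, and Nfkb2 had an adjusted p of 0.0331. The numbers were not taken to pair the libraries, as the labels give a replicate number and no pairing. Same-numbered libraries deviated together with correlations of -0.0035 to 0.100, and differently numbered ones with -0.136 to 0.107. With so few libraries these correlations cannot settle whether the libraries are paired. Other signs that turned were those of Marcksl1 (-0.0019 with upper quartile scaling, and -0.031 to 0.064 with a library left out), Tab2 (-0.019 to 0.0042), Nfkbid (-0.098 to 0.021) and Cd14 (-0.022 to 0.056). The count over all genes was 815 without So(d18:1) replicate 2, over 1.5 times below 1298. Per longest coding transcript, Nfkb2 over Nfkb1 moved from 1.28 to 0.520 in control and from 1.49 to 0.604 in So(d18:1) libraries. Where calls changed, the cause was not tested. Each of the 10 genes had at least 415 reads per library, while 7 of 42 targets had too few to be tested.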
